A study of Mus musculus with 18 samples.

Results

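The 10 genes described here differed between Salv cKO and control hearts in cardiomyocyte TRAP RNA both after infarction and after sham surgery. They are Cuedc1, Tmprss13, Kif5c, Sorl1, Olfml2b and Fig4, which were higher in Salv cKO, and Zcchc3, Wdfy1, Pcp4l1 and Dtd2, which were lower. All 10 are rows of a count table with 46983 gene symbols. They were selected on the genotype difference itself: 25 of the 11393 genes tested in TRAP RNA (0.219%) had an adjusted p below 0.05 in the same direction after both surgeries, 17 higher and 8 lower. Of these, 24 could be placed on the genome, 2 lie within 5 Mb of Sav1, and the 10 genes listed are among those that do not. What kept the remaining genes off the list is not stated, so the 10 are a subset of the genes with this pattern. Their genotype differences in TRAP RNA are therefore given as a description and without a test. The tests below concern total RNA, the response to infarction and the comparison of TRAP with total RNA. Of the libraries in these tests, only those of total RNA were not used for the selection.

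The series holds 18 libraries in 6 groups of 3, sequenced on the Ion Proton. Mice aged 8 to 10 weeks underwent sham surgery or had the left anterior descending coronary artery (LAD) tied off, which causes a myocardial infarction (MI), and RNA was collected 6 weeks later. Whole-heart total RNA was sequenced from infarcted control and infarcted Salv cKO hearts. TRAP (translating ribosome affinity purification) RNA, which is RNA recovered with tagged ribosomes of cardiomyocytes, was sequenced from control and Salv cKO hearts after infarction and after sham. The control mice are described as wild type, and cKO stands for conditional knockout of Salvador, the protein of the gene Sav1. The sources used here do not give the Cre driver, the allele that tags the ribosomes, whether the TRAP controls carry Cre, or the sex of the mice. The labels do not say that the 3 libraries of a group came from separate animals, so a p-value measures how libraries of a group scatter, which may be technical.

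Salvador is an adaptor of the Hippo kinase cascade. With the kinases active, the coactivator YAP is phosphorylated and kept out of the nucleus, and with the cascade interrupted YAP enters the nucleus and acts on genes through the TEAD family of DNA-binding proteins. In the adult heart the cascade is known for holding back cardiomyocyte renewal. The 10 genes are not a known pathway. Sorl1, Fig4, Wdfy1 and Kif5c encode proteins of endosomes and intracellular transport, Tmprss13 a membrane protease, and Olfml2b a secreted matrix protein. Cuedc1 encodes a ubiquitin-binding protein, Pcp4l1 a small relative of the calmodulin regulator Pcp4, and Zcchc3 and Dtd2 proteins that act on nucleic acids.

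Levels are CPM, the counts of a gene scaled to a common library size, with TMM scaling over all 18 libraries. Library totals ran from 3240871 to 24135877 counts, and 3 counts corresponded to 0.228 to 1.14 CPM in a TRAP library and 0.101 to 0.339 CPM in a total RNA library. Summed over 12 cardiomyocyte markers, TRAP libraries held 152000 to 233000 CPM against 41100 to 75000 in total RNA. In infarcted control hearts 10 fibroblast markers summed to 1030 to 1700 CPM in TRAP RNA and 1820 to 2950 in total RNA. Infarcted Salv cKO hearts gave 1010 to 1820 and 2150 to 3820 CPM, also without overlap. Sham TRAP libraries, which have no total RNA beside them, held 940 to 2160 CPM. The cardiomyocyte sums fit the TRAP label, but markers of other cells remained. In infarcted control hearts 13 leukocyte markers summed to 552 to 759 CPM in TRAP RNA and 355 to 431 in total RNA. There 10 endothelial markers summed to 562 to 789 and 705 to 798 CPM, which overlap. Sums of 9 mural markers were lower in TRAP RNA, at 309 to 312 against 845 to 1180 CPM, as were those of the fibroblast markers. Sav1 does not check the genotype label: its counts sum all exons, and its log2 fold change between Salv cKO and control was -0.15 in TRAP RNA after infarction, -0.57 after sham and -0.30 in total RNA. Sham Salv cKO library 3 had the highest Sav1 level of the 12 TRAP libraries, 10.1 CPM, against 2.65 and 1.14 in the other libraries of its group. That library and sham control library 2 held 659 and 567 counts of Y chromosome genes and every other library at most 7, so sex differed within the sham groups. Without this pair of libraries the log2 genotype difference of the 10 genes after sham kept its sign in each gene, and 6 of the 10 still met the threshold used for the selection. The exceptions were Kif5c (log2 1.69), Olfml2b (1.59), Wdfy1 (-1.08) and Fig4 (0.78).

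RefSeq promoters (assembly GRCm38.p6) were matched for 8 of the 10 genes, all but Tmprss13 and Wdfy1. Because YAP acts through TEAD factors, the 250 bases before each start were searched for the TEAD core GGAATG on both strands (CATTCC on the other). It was found for Cuedc1, 210 bases upstream of the first of its RefSeq starts used here, and for Zcchc3, 22 bases upstream. The Cuedc1 window lies inside the gene span given below, which starts at 88098058. Cuedc1 and Sorl1 each have a second promoter in the table, and neither holds the motif. The same letters occur in 12.6% of all 32851 RefSeq promoters of that length. The promoters of these 2 genes, which stand at opposite ends of the group by direction, are shown with that of Sorl1, a higher gene without the motif. Capitals mark the motif, and each sequence is written 5′ to 3′ on the strand of its gene. The Cuedc1 promoter is chr11:88098896-88099145 on the plus strand, the Zcchc3 promoter chr2:152415045-152415294 on the minus strand, and the Sorl1 promoter chr9:42124298-42124547 on the minus strand.
Cuedc1: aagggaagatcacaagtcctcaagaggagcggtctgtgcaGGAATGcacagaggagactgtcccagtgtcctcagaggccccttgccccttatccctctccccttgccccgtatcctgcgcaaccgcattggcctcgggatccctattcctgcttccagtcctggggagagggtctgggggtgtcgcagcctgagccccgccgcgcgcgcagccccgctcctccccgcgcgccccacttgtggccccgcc
Zcchc3: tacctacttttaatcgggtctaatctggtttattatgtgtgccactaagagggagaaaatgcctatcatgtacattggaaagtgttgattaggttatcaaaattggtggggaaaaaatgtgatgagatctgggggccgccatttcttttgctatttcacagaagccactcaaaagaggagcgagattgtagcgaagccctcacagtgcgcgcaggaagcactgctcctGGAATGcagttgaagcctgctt
Sorl1: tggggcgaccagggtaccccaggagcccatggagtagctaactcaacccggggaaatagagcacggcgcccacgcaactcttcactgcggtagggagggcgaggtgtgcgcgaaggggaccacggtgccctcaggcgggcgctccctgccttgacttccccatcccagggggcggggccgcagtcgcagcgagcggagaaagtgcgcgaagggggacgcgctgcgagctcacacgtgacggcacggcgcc
G and C made up 66.8% of the Cuedc1 promoter, 44.8% of the Zcchc3 promoter and 69.6% of the Sorl1 promoter, against a median of 52.4% over all promoters. A match is a string of letters in this window, and no library of the series measured binding.

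In TRAP RNA all 10 genes, by their selection, met the threshold in both comparisons, where 0.334% of the 11393 genes tested did so after infarction and 2.55% after sham, and nothing is read from that count. The 6 higher genes had a median log2 difference of 2.30 after infarction and 2.31 after sham, and the 4 lower genes -1.76 and -1.99. The medians over all genes tested were 0.004 and -0.026. In each of the 10 genes the control and Salv cKO libraries did not overlap after either surgery, where 14.7% of all genes tested did not overlap after infarction and 20.8% after sham. The gene nearest the threshold on the inner side was Wdfy1, with a log2 difference of -1.43 after infarction and -0.95 after sham. Just outside lay Twf2 (-0.82 and -0.67) and the atrial myosin light chain gene Myl4 (1.59 and 1.21).

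**Figure D1:**
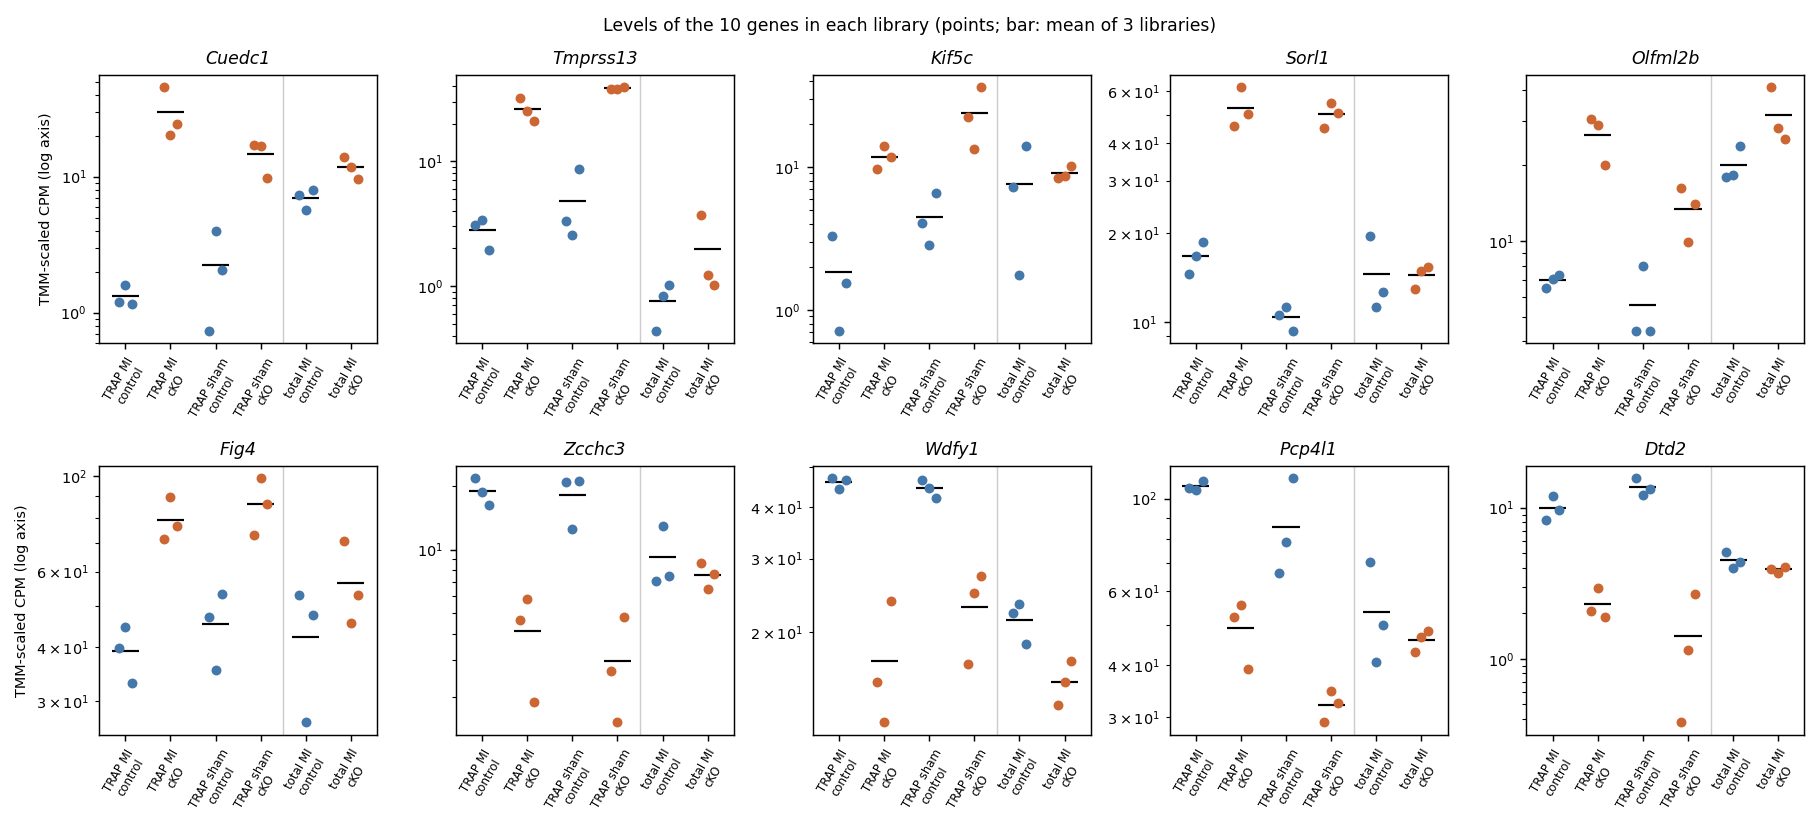
Level of each of the 10 genes in each library, in TMM-scaled CPM on a log axis that differs between panels; blue points are control libraries, orange points Salv cKO libraries, and bars the means of 3 libraries. TRAP libraries stand left of the grey line and total RNA libraries right of it, and the separation of the genotypes in TRAP RNA is wide for Cuedc1 and Tmprss13 and narrow or absent in total RNA for most genes.

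Cuedc1 carries a CUE domain, a small fold that binds ubiquitin, and had the largest difference of the 10 after infarction. Its TRAP level after infarction was 1.2, 1.60 and 1.16 CPM in control and 45.8, 20.1 and 24.4 CPM in Salv cKO. After sham it was 0.732, 3.97 and 2.05 CPM in control, where one library held 2 counts, and 17.1, 16.8 and 9.85 CPM in Salv cKO. The lowest Salv cKO library thus stood above the highest control library in both surgeries. In means, the Salv cKO level was 22.8-fold that of control after infarction (log2 4.51, SE 0.45) and 6.46-fold after sham (log2 2.67, SE 0.44). On the GRCm38 genome Cuedc1 spans 88098058 to 88194140 of chromosome 11.

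Tmprss13 encodes a serine protease anchored in the cell membrane. In control TRAP libraries it stood at 3.09, 3.37 and 1.93 CPM after infarction and at 3.30, 2.55 and 8.59 CPM after sham. In Salv cKO it stood at 31.9, 25.4 and 20.8 CPM after infarction and at 37.5, 37.7 and 39.4 CPM after sham, with an SD of 1.03 CPM. All Salv cKO libraries were above all control libraries, the nearest values being 20.8 and 8.59 CPM. The mean ratio was 9.31 after infarction and 7.94 after sham (log2 3.22, SE 0.36, and 2.82, SE 0.34). Proteases of this family are typical of epithelia, and of 6 epithelial markers 4 or 5 were at 0 in every TRAP group, with a sum of at most 1.78 CPM in any TRAP library. After sham the epithelial sum was 0 to 0.152 CPM in control and 0.758 to 0.895 CPM in Salv cKO. Each of these sums rests on at most 3 counts. In sham control library 3, 3 counts corresponded to 0.228 CPM, and in sham Salv cKO libraries to 0.895 to 1.14 CPM. No difference between genotypes is read from them, and their part in the Tmprss13 difference was not tested. Tmprss13 spans 45319100 to 45347581 of chromosome 9.

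Kif5c, on chromosome 2 from 49619298 to 49774778, encodes a heavy chain of kinesin-1, the motor that carries organelles along microtubules and is best known from neurons. After infarction its TRAP level was 3.26, 0.710 and 1.54 CPM in control (4 to 19 counts) and 9.68, 13.9 and 11.8 CPM in Salv cKO. After sham the values were 4.03, 2.84 and 6.62 CPM in control and 22.4, 13.3 and 36.4 CPM in Salv cKO. The infarcted and sham libraries of a genotype overlapped, and the ratio between genotypes was 6.42 after infarction and 5.35 after sham (log2 2.67, SE 0.47, and 2.34, SE 0.43). Summed Schwann cell and neuronal markers overlapped between the genotypes, at 31.1 to 49.0 CPM in control and 23.0 to 37.3 CPM in Salv cKO after infarction and at 24.9 to 40.0 and 30.7 to 38.5 CPM after sham. Their part in the Kif5c difference was not tested.

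Sorl1 encodes a sorting receptor of the Vps10p family that moves cargo between the Golgi and endosomes together with retromer. Its TRAP level after infarction was 14.6, 16.7 and 18.7 CPM in control and 45.8, 62.0 and 50.2 CPM in Salv cKO. After sham it was 10.6, 11.3 and 9.35 CPM in control and 45.1, 54.5 and 50.7 CPM in Salv cKO. The Salv cKO libraries of both surgeries shared one range, and the control libraries stood higher after infarction than after sham without overlap. The mean ratio was 3.16 after infarction and 4.80 after sham (log2 1.67, SE 0.21, and 2.28, SE 0.22). On chromosome 9 Sorl1 spans 41964720 to 42124297, 3.195 Mb from Tmprss13.

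Fig4 encodes a phosphoinositide phosphatase of the PIKfyve complex, which keeps the lipid identity of late endosomes and lysosomes. It was the most abundant of the 6 higher genes per kilobase of exon, at 11.9 CPM per kb in control and 24.1 in Salv cKO TRAP RNA after infarction. Its TRAP libraries gave 39.9, 44.7 and 33.0 CPM in control and 71.5, 89.4 and 76.5 CPM in Salv cKO after infarction. After sham they gave 47.2, 35.5 and 53.2 CPM in control and 73.1, 99.0 and 86.0 CPM in Salv cKO. The genotypes did not overlap, but the difference was the smallest of the 6, with ratios of 2.02 and 1.90 (log2 1.03, SE 0.20, and 0.92, SE 0.20). Fig4 spans 41188172 to 41303260 of chromosome 10.

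Olfml2b encodes a secreted olfactomedin-domain protein of the extracellular matrix. After infarction TRAP RNA held 6.53, 7.10 and 7.32 CPM in control and 30.5, 28.9 and 20.1 CPM in Salv cKO. After sham it held 4.39, 7.94 and 4.41 CPM in control and 16.3, 9.90 and 14 CPM in Salv cKO, so that the highest control library was near the lowest Salv cKO library. The mean ratio was 3.79 after infarction and 2.40 after sham (log2 1.94, SE 0.30, and 1.30, SE 0.32). Matrix proteins are made mainly by fibroblasts, and the summed fibroblast markers overlapped between genotypes in TRAP RNA, at 1030 to 1700 CPM in control and 1010 to 1820 CPM in Salv cKO after infarction. After sham they were 1010 to 2160 and 940 to 1060 CPM. The part of fibroblasts in the Olfml2b difference was not tested. The gene lies on chromosome 1 from 170644532 to 170682789.

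Among the lower genes, Zcchc3 encodes a CCHC zinc-finger protein that binds nucleic acids and assists the cytosolic sensors of viral RNA and DNA. In TRAP RNA after infarction it stood at 21.8, 18.8 and 16.2 CPM in control and 4.65, 5.85 and 1.89 CPM in Salv cKO. After sham it stood at 20.9, 12.5 and 21.2 CPM in control and 2.65, 1.52 and 4.78 CPM (4 to 16 counts) in Salv cKO. No Salv cKO library reached the lowest control value of either surgery. Control means were 4.59-fold and 6.10-fold those of Salv cKO (log2 -2.15, SE 0.37, and -2.56, SE 0.42). Zcchc3 lies on chromosome 2 from 152411955 to 152415027. Its one near-identical copy, the processed pseudogene Gm11779 with a match of 352 bases at 97.2% identity, had 0 counts in every library.

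Dtd2 encodes a deacylase that removes wrongly attached amino acids from transfer RNA. Its TRAP libraries held 8.24, 11.9 and 9.64 CPM in control and 2.07, 2.92 and 1.89 CPM in Salv cKO after infarction. After sham they held 15.7, 12.2 and 13.2 CPM in control and 0.379, 1.14 and 2.69 CPM in Salv cKO, from 1, 3 and 9 counts. The genotypes were far apart in both surgeries (log2 -2.09, SE 0.41, and -3.19, SE 0.47), though the sham Salv cKO level rests on few counts. After infarction the difference met the selection threshold in 2 of 6 fits without 1 library, and after sham in 6 of 6. Dtd2 is the only one of the 10 on the chromosome of Sav1: it lies on chromosome 12 from 51988312 to 52006501, 17.96 Mb from that gene.

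Wdfy1 encodes a WD-repeat protein with a FYVE domain, which binds phosphoinositides on early endosomes, and serves as an adaptor of Toll-like receptor signalling. Its TRAP level was 46.9, 44.2 and 46.3 CPM in infarcted control and 46.5, 44.5 and 42.1 CPM in sham control, so the 6 control libraries lay within 5 CPM of each other. The Salv cKO libraries gave 15.1, 12.1 and 23.7 CPM after infarction and 16.7, 24.8 and 27.2 CPM after sham. Control means were 2.70-fold and 1.94-fold those of Salv cKO (log2 -1.43, SE 0.24, and -0.95, SE 0.24). Leaving out any 1 of the 6 sham libraries put the sham difference on the other side of the selection threshold, with log2 values that stayed negative. The gene lies on chromosome 1 from 79702262 to 79776143 and shares exon sequence on the other strand with Mrpl44, whose log2 differences were 0.15 and -0.49. Whether the counting used strand is unstated, so reads of that stretch cannot be told apart.

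Pcp4l1 encodes a small IQ-motif protein related to the calmodulin regulator Pcp4. It was the most abundant of the 10 per kilobase of exon, at 68.1 CPM per kb in infarcted control TRAP RNA. The TRAP libraries gave 106, 105 and 110 CPM in control and 52.2, 55.6 and 39.1 CPM in Salv cKO after infarction. After sham they gave 66.6, 78.6 and 112 CPM in control and 29.2, 34.7 and 32.5 CPM in Salv cKO. Infarcted control libraries were closely grouped and sham control libraries spread out, and the genotypes did not overlap in either surgery. Control means were 2.19-fold and 2.67-fold those of Salv cKO (log2 -1.12, SE 0.20, and -1.42, SE 0.21). The gene lies on chromosome 1 from 171173262 to 171196268, 0.49 Mb from Olfml2b, which differed in the opposite direction.

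Some marker sums did not overlap between genotypes in TRAP RNA after infarction, each lower in Salv cKO. The cardiomyocyte sums were 194000 to 213000 CPM in control and 152000 to 182000 in Salv cKO. For 8 epicardial markers they were 55.5 to 70.5 and 29.8 to 34.1 CPM, and for 5 erythroid markers 222 to 388 and 116 to 213 CPM. After sham these sums overlapped. Cardiomyocyte markers then gave 168000 to 217000 and 208000 to 233000 CPM, epicardial markers 31.2 to 37.4 and 36.4 to 49.1, and erythroid markers 89.9 to 590 and 144 to 325. For 6 adipocyte markers the sums were 1.13 to 8.59 CPM in control and 9.48 to 38.9 in Salv cKO after sham. After infarction they overlapped, at 3.37 to 5.32 and 2.19 to 9.81 CPM. The sums of the other lists also overlapped between genotypes after infarction. No marker gene of any list passed in a genotype comparison, and the part of these shifts in the 10 genes was not tested. In bulk RNA fewer cells of a type and less RNA per cell cannot be told apart.

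Total RNA of infarcted hearts was not used for the selection and gives the test of the 10 genes between genotypes. None of the 10 passed in total RNA by edgeR's quasi-likelihood test with Benjamini-Hochberg adjustment over 12945 genes, of which 33 (0.255%) passed, and DESeq2 also called 0 of the 10. At an unadjusted p below 0.05 there were 4 of the 10, Cuedc1, Tmprss13, Olfml2b and Wdfy1, against 13.8% of all genes. The same 4 had libraries that did not overlap between genotypes, against 19.3% of all genes. The fitted sign in total RNA matched that in TRAP RNA after infarction in each of the 10, against 44% of the 10919 genes tested in both. It turned for Sorl1, Pcp4l1, Kif5c and Zcchc3, whose values were smaller than their SE, when 1 library or another was left out. Their log2 differences ran from -0.13 to 0.27, -0.34 to 0.0276, -0.17 to 0.97 and -0.41 to 0.11. The 6 higher genes had a median log2 difference of 0.57 in total RNA and the 4 lower genes -0.21, with 0.016 over all genes tested.

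**Figure D2:**
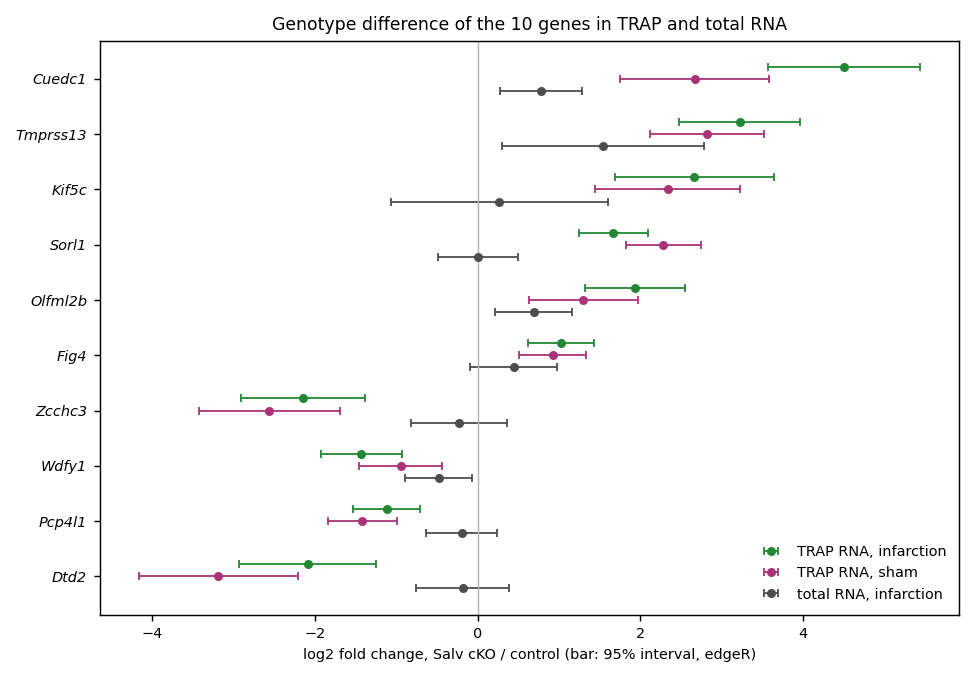
Log2 fold change of each of the 10 genes between Salv cKO and control (points) with 95% intervals from edgeR (bars), in TRAP RNA after infarction (green), TRAP RNA after sham (magenta) and total RNA after infarction (grey). The TRAP values chose the genes, and the grey points lie nearer to 0 than the green ones for all 10 genes.

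Among the higher genes in total RNA, Cuedc1 had 7.34, 5.65 and 8.04 CPM in control and 13.9, 11.8 and 9.61 CPM in Salv cKO. Its log2 difference was 0.78 (95% interval 0.27 to 1.28, adjusted p = 0.232). Olfml2b had 18.0, 18.3 and 23.9 CPM in control and 41.1, 28.3 and 25.5 CPM in Salv cKO (log2 0.69, 0.21 to 1.16, adjusted p = 0.245). Salv cKO library 1 was the highest of the group for both genes, and for Tmprss13 as well. Tmprss13 was close to its limit of detection in control, with 0.436, 0.833 and 1.01 CPM from 9 to 13 counts, and had 3.73, 1.23 and 1.02 CPM in Salv cKO (log2 1.54, 0.31 to 2.78, adjusted p = 0.290). The highest control library and the lowest Salv cKO library were nearly equal.

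Sorl1, Kif5c and Fig4 overlapped between genotypes in total RNA. Sorl1 stood at 19.5, 11.3 and 12.7 CPM in control and 12.9, 14.9 and 15.4 CPM in Salv cKO, and its log2 difference was 0.0044 with a 95% interval of -0.49 to 0.49 (adjusted p = 0.997). Control library 1 was the highest of the 6. Kif5c varied widely between control libraries, with 7.24, 1.76 and 13.9 CPM against 8.41, 8.60 and 10.1 in Salv cKO, and its interval was wide (log2 0.27, -1.07 to 1.60, adjusted p = 0.866). Fig4 gave 52.9, 26.8 and 47.5 CPM in control and 70.8, 45.7 and 53.0 CPM in Salv cKO (log2 0.44, -0.09 to 0.98, adjusted p = 0.443). Since the TRAP differences chose the genes, no difference between the fractions is read from these values.

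Of the lower genes, Wdfy1 was the one whose total RNA libraries did not overlap: 22.2, 23.3 and 18.7 CPM in control against 13.3, 15.1 and 17.0 in Salv cKO (log2 -0.48, -0.89 to -0.07, adjusted p = 0.312). Zcchc3 gave 7.10, 12.9 and 7.53 CPM in control and 8.62, 6.48 and 7.69 CPM in Salv cKO (log2 -0.23, -0.82 to 0.36, adjusted p = 0.730). Dtd2 gave 5.09, 3.98 and 4.40 CPM in control and 3.95, 3.69 and 4.07 CPM in Salv cKO (log2 -0.18, -0.75 to 0.39, adjusted p = 0.789). The genotypes overlapped in both genes. Pcp4l1 gave 70.4, 40.7 and 50 CPM in control and 42.9, 46.8 and 48.3 CPM in Salv cKO, where control library 1 alone stood apart (log2 -0.20, -0.64 to 0.24, adjusted p = 0.689).

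Markers of other cells differed between the genotypes in total RNA without overlap: 10 endothelial markers summed to 705 to 798 CPM in control and 832 to 863 in Salv cKO, 13 leukocyte markers to 355 to 431 and 512 to 709, and the erythroid markers to 60.6 to 228 and 249 to 325. The fibroblast sums overlapped, at 1820 to 2950 and 2150 to 3820 CPM. Their part in the total RNA values of the 10 genes was not tested.

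A single value per library, the mean log2(CPM + 0.5) of the 6 higher genes minus that of the 4 lower genes, puts the libraries in order. Infarcted control TRAP libraries gave -2.21, -2.39 and -2.38 and sham control -2.39, -1.90 and -1.99. Infarcted Salv cKO TRAP libraries gave 1.74, 1.56 and 1.72 and sham Salv cKO 2.33, 1.94 and 1.5. In TRAP RNA this gap was fixed by the choice of genes. Total RNA lay between them, with -0.67, -1.17 and -0.23 for the control libraries and 0.42, 0.05 and -0.11 for Salv cKO. The genotypes in total RNA were next to each other without overlap.

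**Figure D3:**
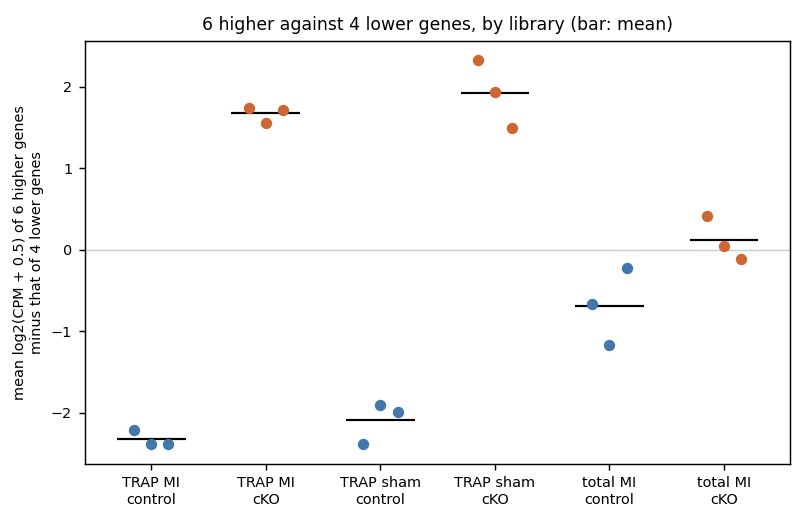
Mean log2(CPM + 0.5) of the 6 higher genes minus that of the 4 lower genes in each of the 18 libraries, by group; blue points are control, orange points Salv cKO, and bars are means of 3 libraries. TRAP libraries of the genotypes lie on either side of 0 by selection, and total RNA libraries lie between them with control below Salv cKO.

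The response to infarction in TRAP RNA was a further comparison, made in each genotype over the libraries that served the selection. Its calls are therefore not independent of how the genes were chosen. In control, 0 of the 10 genes passed by edgeR (adjusted p from 0.143 to 0.989), where 1.08% of all genes passed, and 3 had an unadjusted p below 0.05, against 14.1% of all genes. DESeq2 also called 0. Those 3 were Kif5c (log2 -1.39, SE 0.49), Tmprss13 (-0.98, SE 0.38) and Sorl1 (0.66, SE 0.22). Without sham control library 2, one of the libraries with Y chromosome counts, Tmprss13 passed as lower after infarction (log2 -1.26, adjusted p = 0.0408). It also passed without both libraries that hold Y counts (log2 -1.25, adjusted p = 0.0499). The other 7 genes ranged from -0.80 for Cuedc1 to 0.32 for Olfml2b in control.

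In Salv cKO TRAP RNA, 1 of the 10 passed between infarction and sham by edgeR, where 18.2% of all genes passed. This was Olfml2b, which rose from 13.4 ± 3.24 CPM after sham to 26.5 ± 5.57 CPM after infarction (SD, n = 3, log2 0.96, SE 0.29, adjusted p = 0.0274). The 3 infarcted libraries at 30.5, 28.9 and 20.1 CPM stood above the 3 sham libraries at 16.3, 9.90 and 14 CPM. Single libraries decided the call: the adjusted p was 0.119 and 0.0839 without infarcted Salv cKO library 1 or 2, and 0.115 and 0.0728 without sham Salv cKO library 2 or 3. Cuedc1 (log2 1.04, SE 0.36, adjusted p = 0.0520), Pcp4l1 (0.58, SE 0.20, adjusted p = 0.0518) and Kif5c (-1.06, SE 0.40, adjusted p = 0.0670) did not pass. The Cuedc1 call lay at the threshold: it passed in 6 of 13 alternatives, with adjusted p from 0.0113 with no filter to 0.373 without infarcted Salv cKO library 1. For Cuedc1 the genotype difference was larger after infarction than after sham by 1.84 on the log2 scale (SE 0.64), a value given as a description since both differences chose the gene. The same quantity was -0.61 for Sorl1, 1.10 for Dtd2 and 0.64 for Olfml2b, and within 0.5 of 0 for the other 6 genes.

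TRAP was compared with total RNA after infarction as the mean over both genotypes, which is balanced over the genotype contrast that chose the genes. The TRAP side still includes the infarcted libraries used for the selection, so the values within each genotype are given as well. By this test 5 of the 10 genes passed, 4 higher in TRAP RNA and 1 lower, where 74.2% of the 13267 genes tested passed and the median log2 difference of all genes was -0.148. Tmprss13 was higher by 2.84 on the log2 scale (SE 0.32, adjusted p = 4.17e-08) and Sorl1 by 1.06 (SE 0.16, adjusted p = 2.00e-06). Wdfy1 (log2 0.65, SE 0.16, adjusted p = 6.50e-04) and Pcp4l1 (0.58, SE 0.14, adjusted p = 7.32e-04) were higher too. Olfml2b was lower in TRAP RNA (log2 -0.86, SE 0.17, adjusted p = 8.44e-05). These 5 genes passed when any 1 of the 12 libraries was left out. Within the genotypes, the 95% interval of Tmprss13 lay above 0 in both, that of Sorl1 held 0 in control (-0.22 to 0.70) and lay above it in Salv cKO (1.43 to 2.34), and those of Wdfy1, Pcp4l1 and Olfml2b held 0 in Salv cKO. The Sorl1 call thus came with a high level in the Salv cKO TRAP libraries. The Wdfy1, Pcp4l1 and Olfml2b calls came with the levels in the control TRAP libraries. Both sets of libraries helped to choose the genes, and of the 5 only Tmprss13 had intervals clear of 0 in both genotypes. Kif5c (log2 -0.79, adjusted p = 0.0807), Cuedc1 (-0.49, adjusted p = 0.0726), Fig4 (0.22, adjusted p = 0.224), Dtd2 (0.22, adjusted p = 0.403) and Zcchc3 (0.14, adjusted p = 0.592) did not pass.

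Within a genotype the same ratio differed for most of the 10, which follows in part from their selection and is a description. Cuedc1 had a log2 ratio of TRAP over total RNA of -2.35 in control and 1.37 in Salv cKO. Kif5c went from -1.98 in control to 0.39 in Salv cKO, Tmprss13 from 2.04 to 3.65 and Sorl1 from 0.24 to 1.89. In the opposite sense, Zcchc3 went from 1.11 in control to -0.83 in Salv cKO and Dtd2 from 1.19 to -0.75. Wdfy1 and Pcp4l1, at 1.15 and 1.05 in control, stood at 0.16 and 0.10 in Salv cKO. Olfml2b was below 0 in both genotypes, at -1.47 and -0.24, and Fig4 was near it at -0.06 and 0.49. Cuedc1, Zcchc3 and Dtd2 thus had TRAP to total ratios of opposite sign in the 2 genotypes, with 95% intervals clear of 0 in each. The fitted signs also differed for Kif5c and Fig4. However, the interval held 0 for Kif5c in Salv cKO (-0.68 to 1.46) and for Fig4 in control (-0.53 to 0.41).

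**Figure D4:**
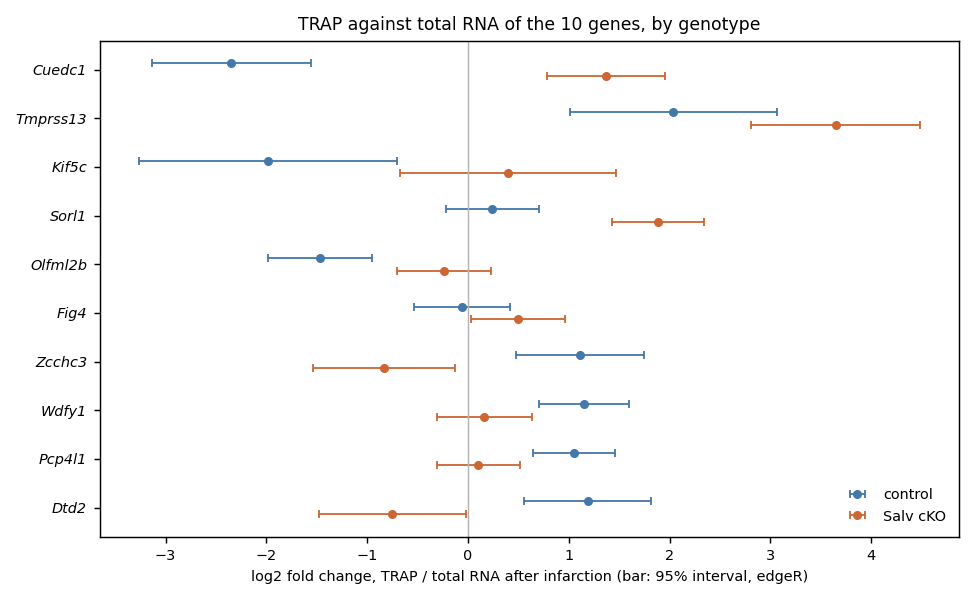
Log2 fold change of TRAP over total RNA after infarction for each of the 10 genes (points) with 95% intervals from edgeR (bars), in control (blue) and in Salv cKO (orange). The orange points lie right of the blue ones for the 6 higher genes and left of them for the 4 lower genes, and Olfml2b lies below 0 in both genotypes.

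Other genes of the pathways were counted too. In 10 lists of 202 genes around these functions (kinesin-1 and its adaptors, Vps10p receptors with retromer and GGA proteins, phosphoinositide and FYVE genes, nucleic acid sensing, calmodulin and IQ-motif genes, membrane serine proteases, CUE-domain genes, transfer RNA synthetases and deacylases, olfactomedin genes, and close relatives), 192 are not among the 10. Of 159 tested in TRAP RNA, 0 passed between genotypes after infarction by edgeR (15 at an unadjusted p below 0.05), and 1 passed after sham (26 at an unadjusted p below 0.05). In total RNA 1 of 165 passed (22 at an unadjusted p below 0.05). Over all genes tested 7.36%, 18.5% and 13.8% had an unadjusted p below 0.05, and 0.334%, 2.55% and 0.255% passed, so the lists did not stand apart by these counts. The median log2 differences of the list genes were 0.03, 0.02 and -0.01. The gene that passed after sham was the kinesin gene Kif1b, named after its values were seen. It stood at 524 ± 176 CPM in control and 967 ± 144 CPM in Salv cKO (SD, n = 3, log2 0.89, SE 0.21, adjusted p = 0.0258). Kif1b did not pass in TRAP RNA after infarction (log2 0.25, adjusted p = 0.898). Nor did it in total RNA, where its sign was the opposite (log2 -0.69, SE 0.19, adjusted p = 0.201). The gene that passed in total RNA was Sorcs2, a Vps10p receptor like Sorl1, which rose from 2.90 ± 0.0596 CPM in control to 10.5 ± 3.27 CPM in Salv cKO (SD, n = 3, log2 1.89, SE 0.28, adjusted p = 0.00991).

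The most abundant close relative of each gene did not pass in any genotype comparison by edgeR. Kif5b, the widely expressed kinesin-1 heavy chain, had log2 differences of -0.01, 0.57 and -0.52 in TRAP RNA after infarction, in TRAP RNA after sham and in total RNA. Sort1, the sortilin receptor, had 0.16, -0.23 and 0.05 in the same order, and Cuedc2 had -0.17, 0.15 and 0.17. Corin, the cardiac membrane protease that processes the natriuretic peptide precursor, was lower in Salv cKO in each, at -0.48, -0.59 and -0.36, whereas its relative Tmprss13 was higher. Wdfy3 had 0.79, 0.17 and -0.30, Dtd1 0.10, -0.65 and 0.24, Olfml3 -0.07, 0.11 and 0.33, and Sacm1l, another phosphoinositide phosphatase, 0.08, -0.12 and -0.40. Zcchc17, which shares only the zinc finger with Zcchc3, had -0.14, 0.81 and 0.36. Pcp4, the relative of Pcp4l1, had 0 to 3 counts per library and was not tested.

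The 10 genes lie on 6 chromosomes. Besides the pairs on chromosomes 1 and 9 given above, no 2 of them lie closer than 90.868 Mb on one chromosome. Genes around them were counted within 1 Mb: of 151 tested in TRAP RNA, 0 passed between genotypes after infarction by edgeR, 5 passed after sham and 0 passed in both, and 0 of 144 passed in total RNA. The shares over all genes were 0.334%, 2.55%, 0.219% and 0.255%, and the neighbours are not read as a group. Those described after sham, named after their values were seen, were Mrps23 near Cuedc1 (log2 -1.53), Cep164 near Tmprss13 (1.23), Rgs4 near Olfml2b (1.04) and Ap4s1 near Dtd2 (-1.21). Mrps23 and Ap4s1 were lower and Cep164 and Rgs4 higher. Ap4s1, a subunit of the adaptor complex AP-4, gave 81.8 ± 4.66 CPM in control and 48.4 ± 19.2 CPM in Salv cKO after infarction (SD, n = 3, log2 -0.75, adjusted p = 0.292). On the strand opposite to Tmprss13 and Sorl1, the overlapping genes 1700003G13Rik and Gm16214 had at most 1 count in any library.

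For each of the 10 genes the tested gene with the most similar TRAP profile was found as the smallest root mean square (RMS) difference of centred log2 CPM over the 12 TRAP libraries, which share the genotype contrast that chose the genes. Fig4 had the closest match, Klhdc8a at 0.15, where the median over all genes was 0.69. Pcp4l1 was nearest to Timmdc1 (0.24, median 0.81), Wdfy1 to Hmgn2 (0.27, median 0.81) and Sorl1 to Pygl, the liver-type glycogen phosphorylase gene (0.29, median 1.10). Olfml2b was nearest to Prune2 (0.47, median 0.99), Dtd2 to Fam81a (0.55, median 1.45), Zcchc3 to Lamtor3 (0.60, median 1.34) and Kif5c to Park2, the gene of Parkin (0.69, median 1.5). Cuedc1 was nearest to Dvl3, a dishevelled gene of Wnt signalling (0.84, median 1.87), and Tmprss13 to Hal (0.75, median 1.67). In total RNA the pairs did not all run together: Pygl differed by 2.12 on the log2 scale where Sorl1 differed by 0.0044, and Hmgn2 by 0.84 where Wdfy1 differed by -0.48. Unlike the 10 genes, the nearest genes were not screened by their distance to Sav1, so some of them may lie close to it.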

How the data were processed

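The deposited files hold whole-number counts per gene symbol for 18 libraries, made by the authors from Ion Proton reads. STAR 2.5, DESeq2 and the mm10 genome are named in the submitters' processing notes, with the counter, annotation and strand option not given in the sources used here. Deposited counts were fitted in R 4.3.3 with edgeR 4.0.16 (TMM scaling, filterByExpr, robust quasi-likelihood fit, two-sided test, group as the only term). The 12 TRAP libraries (11393 genes), the 6 total RNA libraries (12945 genes) and the 12 libraries of infarcted hearts (13267 genes) were fitted separately. A gene passes at an adjusted p below 0.05 (Benjamini-Hochberg, all genes of its fit), and a fold change carries its standard error (SE). The procedure was tested on simulated data. CPM values are TMM-scaled, and CPM per kb divides by merged exon length (GENCODE, GRCm38). Near-identical copies were sought with BLAST 2.17.0 (at least 95% identity over 200 bases). Reads carry no molecular identifiers, so floors cover counting error alone.

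The 10 genes, the gene lists and the tests were chosen with earlier results of these data known. Named genes are these 10, Sav1, the nearest profile and most abundant relative of each, list genes that passed in total RNA or in both TRAP comparisons, and genes at the selection threshold. Kif1b and the neighbours named in the text fall outside this rule. One neighbouring gene is counted but not reported here. Alternatives were relative log expression scaling, no filter, DESeq2 1.42.0, the replicate number as a block, equal depth, the compared groups alone, leaving out each library, and leaving out the libraries with Y counts. Same-numbered libraries did not deviate together (mean correlation -0.0017 in TRAP and -0.0395 in total RNA), so they were not paired. The sources used here do not say whether TRAP and total RNA came from the same hearts.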

Additional observations from a re-analysis of the deposited data

Results flagged for a closer look

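Cuedc1 and Dtd2 stood out because every infarcted control library lay below the sham control mean and every infarcted Salv cKO library above the sham Salv cKO mean. For Cuedc1 the log2 fold change between infarction and sham was -0.80 in control and 1.04 in Salv cKO. For Dtd2 it was -0.49 in control and 0.61 in Salv cKO, where the sham Salv cKO libraries hold 1 to 9 counts. The difference between genotypes was not tested, because the genotype contrasts it is made of chose both genes. None of these 4 changes passed on its own, though Cuedc1 in Salv cKO (adjusted p = 0.0520, edgeR) passed in 6 of 13 alternatives.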

How the results depend on the processing

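Over all genes, 38 passed between genotypes in TRAP RNA after infarction, and 106 with no filter, 74 with DESeq2, 58 with the 2 groups fitted alone and 22 to 35 without 1 library. After sham 291 passed, and 651 with no filter, 622 with DESeq2, 127 with the 2 groups alone, 84 without the libraries with Y counts and 104 to 378 without 1 library. Of the 10 genes, 5 met the infarction threshold and 6 the sham threshold in every such fit without 1 library. The 5 were Cuedc1, Olfml2b, Sorl1, Tmprss13 and Zcchc3, and the 6 were Cuedc1, Dtd2, Pcp4l1, Sorl1, Tmprss13 and Zcchc3. Dtd2 after infarction and Olfml2b after sham met it in 2 of 6 such fits, and Fig4 in 3 of 6 after each surgery. For infarction in control, 0 of the 10 passed, against 1 with no filter (Kif5c), 1 without the Y count libraries and 0 to 1 without 1 library. In Salv cKO 1 passed, against 2 with relative log expression scaling, 2 with the replicate block, 2 at equal depth, 4 with no filter, 3 with DESeq2, 3 with the 2 groups alone and 0 to 3 without 1 library. The replicate block left 39 and 373 genes passing between genotypes after infarction and after sham. For TRAP against total RNA and for genotype in total RNA the counts of passing genes among the 10 stayed within 1.5 times under each alternative run.

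Signs that turned belonged to values smaller than their SE. For infarction in control, Wdfy1 (0.01) was -0.0151 at equal depth and ran from -0.0134 to 0.0491 without 1 library, and Zcchc3 (0.02) was -0.18 without the Y count libraries and ran from -0.18 to 0.17. In Salv cKO Sorl1 ran from -0.0791 to 0.14. In total RNA between genotypes Sorl1 was -0.059 with no filter and ran from -0.13 to 0.27, Pcp4l1 from -0.34 to 0.0276, Kif5c from -0.17 to 0.97 and Zcchc3 from -0.41 to 0.11. Zcchc3 ran from -0.0047 to 0.29 for TRAP against total RNA. The cause was not tested. The depth limits Dtd2, Zcchc3, Cuedc1, Kif5c and Tmprss13 most, with under 10 counts in some TRAP libraries.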
